A study of Mus musculus with 2 samples.

Results

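Genes of bone morphogenetic protein (BMP), growth differentiation factor (GDF) and transforming growth factor beta (TGF-beta) signalling were examined in ovaries of prenatally androgenized (PNA) mice and control mice. The genes were taken by symbol, as every gene of the annotation whose symbol begins with Bmp, Gdf, Tgfb, Smad, Acvr, Ltbp or Grem, without the oocyte genes *Gdf9* and *Bmp15* and without probe sets that name several genes. This gave 49 of 20752 genes on the chip, with 104 probe sets, the groups of short oligonucleotides that each measure a transcript. They comprised 17 ligands, 12 receptors, 7 extracellular binders, 8 Smads and 5 other proteins that carry such a symbol. PNA mice were female ICR offspring of dams that were given 350 µg of dihydrotestosterone (DHT), an androgen that aromatase does not convert to estrogen, in 70 µl of sesame oil each day from day 16 to day 18 of gestation. Control mice were female ICR offspring of dams given sesame oil alone over the same days. The injections were given to the dams while they carried these offspring, and ICR is an outbred stock. Each group held 5 ovaries and was measured on 1 Affymetrix Mouse Genome 430 2.0 array. Diestrus is the stage that the sample labels give for collection of ovaries, and the age at which these ovaries were taken is not known from the sources used here.

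BMPs, GDFs, activins and TGF-betas are secreted dimers that bring together type I and type II serine/threonine kinase receptors on the cell surface. The type I receptor then phosphorylates receptor Smads, which join Smad4 and enter the nucleus, while Smad6 and Smad7 hold the pathway back. Outside the cell, gremlins and other antagonists bind BMPs, and latent TGF-beta binding proteins (LTBPs) tether latent TGF-beta to the matrix. In the ovary these factors pass between oocyte, granulosa cells and theca cells and bear on follicle growth and steroid synthesis.

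With 1 array per group there is no spread between replicates, so no SD, interval or p-value is given, and precision is limited by the small number of arrays. Each gene is given by its brightest probe set, and higher or lower means a change of 1.5-fold or more, the criterion of the study, which is 0.58 on the log2 scale. The signal is a linear intensity in arbitrary units. Signals of different probe sets were ranked to choose the brightest and summed over marker lists, but are no measure of which transcript is more abundant. A floor was set at the 40th percentile of the signals of an array (30.65 for PNA and 30.45 for control ovaries), and genes below it on both arrays were given no direction. The probe sets of 1 gene share the same RNA and are no replicates, although they show how far a value rests on a single probe set. Across 5996 genes with a second probe set above the floor on both arrays, the log2 ratios of the brightest and the next probe set differed by a median of 0.09, and for 95% of the genes by less than 0.42. Ovarian markers were bright on both arrays, among them *Inha* (10174 in PNA and 10386 in control ovaries), whereas the oviduct genes *Ovgp1*, *Foxj1* and *Pax8* and the adipocyte gene *Adipoq* lay below the floor on both. In all, 4 of 11 oviduct and 3 of 7 adipocyte markers were above it.

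Of the 49 genes, 44 had a signal above the floor in PNA ovaries, control ovaries or both. Of these, *Bmp7*, *Grem1* and *Ltbp2* rose in PNA ovaries, *Ltbp1* and, by its measured ratio alone, *Gdf10* fell, and 39 stayed under 1.5-fold. The share of higher genes was therefore 6.82%, against 2.49% of the 14116 genes above the floor, and the share of lower genes was 4.55%, against 2.16%. Both directions together took 4.65% of all genes above the floor. The shares of the pathway rest on 3 and 2 genes. At 2-fold, 0.63% of all genes were higher and 0.793% were lower, 1.42% together, and *Ltbp1* alone of the 44 genes passed. The log2 ratio, PNA over control, had a median of -0.06 over the 44 genes and -0.01 over all genes above the floor. Ligands and extracellular binders held all 5 changed genes, and none of the 11 receptors and 7 Smads above the floor passed 1.5-fold. With 4.65% of all genes past 1.5-fold, groups this small can hold none, so these counts do not set the roles apart.

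**Figure D1:**
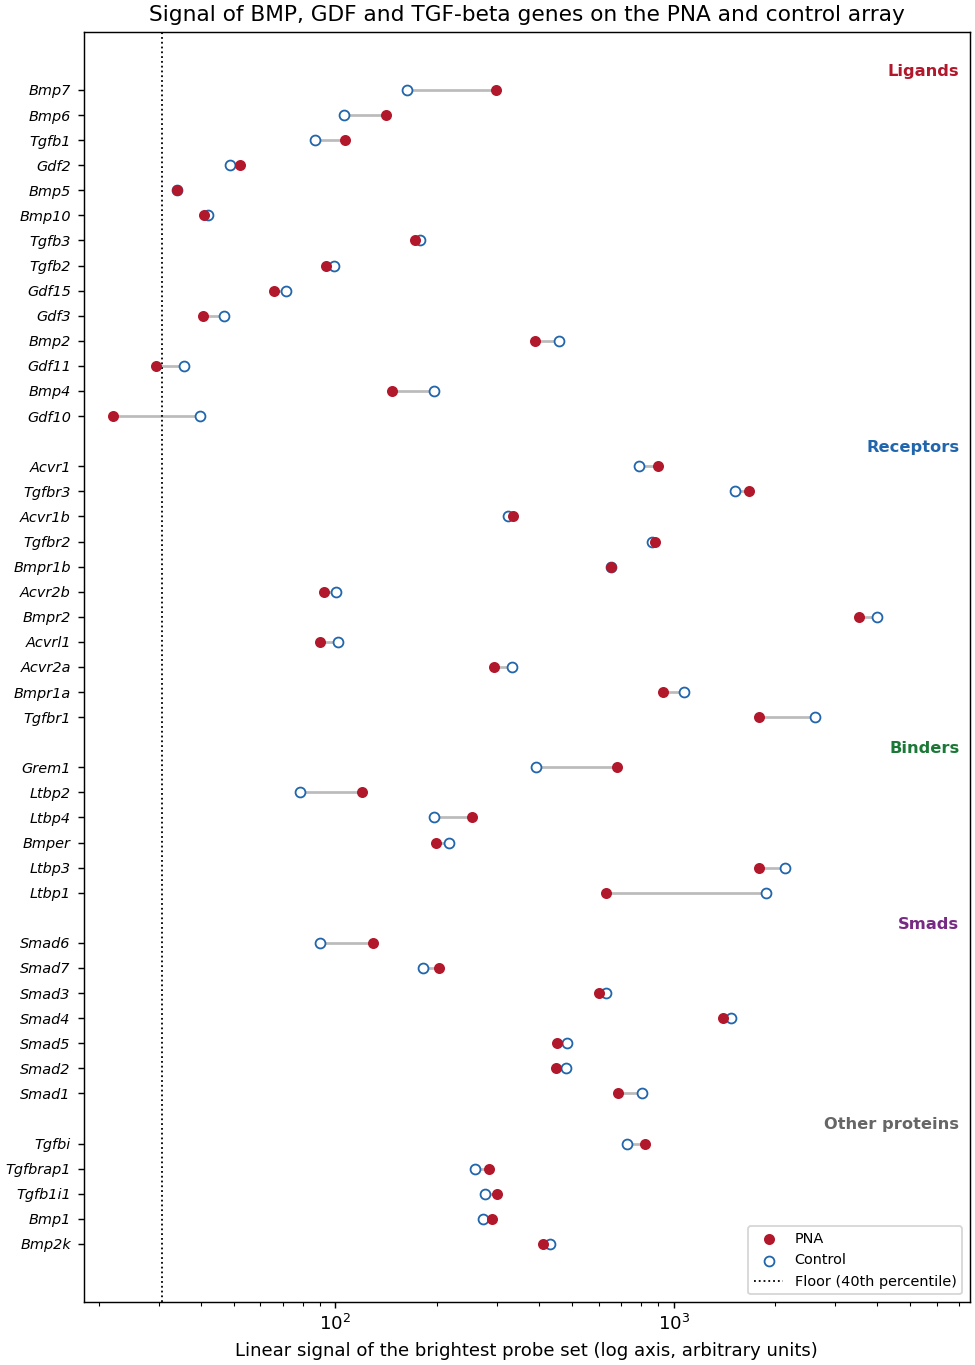
Linear signal (log axis, arbitrary units) of the brightest probe set of all but 1 of the 44 genes above the floor, with filled points for the PNA array, open points for the control array and a dotted line at the PNA floor of 30.65. The 2 points of most genes lie close together, and the widest gap is that of *Ltbp1*, at 631 in PNA and 1873 in control ovaries.

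**Figure D2:**
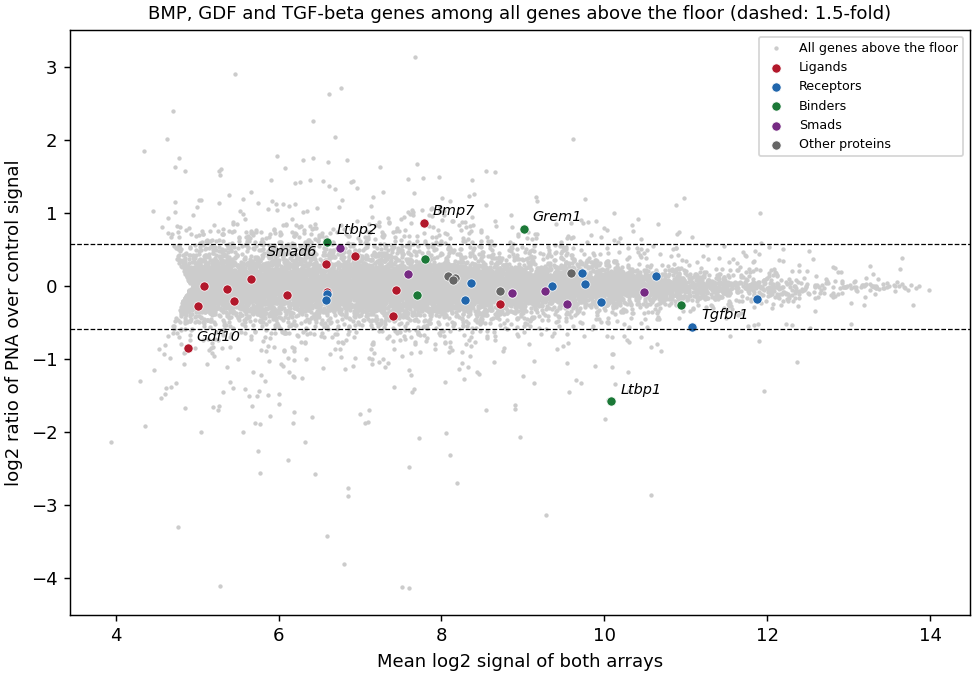
The log2 ratio of PNA over control signal against the mean log2 signal of both arrays, for all 14116 genes above the floor in grey and all but 1 of the 44 genes in colour by role, with dashed lines at 1.5-fold. Most of the 44 genes lie in the band between the lines, and *Ltbp1* lies far below it at a log2 ratio of -1.57.

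Among the ligands, *Bmp7*, a BMP known from theca cells in rats, rose on all of its probe sets. The brightest had a signal of 298 in PNA and 163 in control ovaries, a log2 ratio of 0.87 or 1.83-fold. The second gave 227 in PNA and 89.2 in control ovaries (log2 ratio 1.34) and the third 111 in PNA and 51.0 in control ovaries (log2 ratio 1.12). All 3 values in PNA ovaries were therefore higher, by 1.83-fold to 2.54-fold, and *Bmp7* ranked 122nd from the highest ratio among the 14116 genes. The brightest probe set aligns to chromosome 2 at 172868014-172868876 and the others to spans that end at 172940307 and 172940092, on the minus strand.
Markers of the ovarian surface epithelium and mesothelium, which line the organ, mostly had ratios above 1. Of 12 such markers, all above the floor, 10 had a ratio above 1, as did 47.1% of all genes above the floor, 3 rose (*Krt19*, *Lgals7* and *Krt7*) and none fell, with a median log2 ratio of 0.42 and a summed signal of 1831 in PNA and 1350.2 in control ovaries. With 50 added to the signals, 1 of these markers was higher. As deposited, 2.49% of all genes above the floor were higher. Theca and stroma markers had a median of 0.16 over 13 genes, with *Cyp17a1*, which forms androgen precursors in theca cells, higher and *Lhcgr*, the LH receptor, lower. The part of these cells in the *Bmp7* signal was not tested. In whole ovaries, fewer cells of a type and less RNA per cell cannot be told apart.

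The other BMP ligands stayed under 1.5-fold and lay on both sides of 1. *Bmp6*, which oocytes and granulosa cells are known to make, had a signal of 141 in PNA and 106 in control ovaries (log2 ratio 0.41). *Bmp4*, which like *Bmp7* is known from theca cells in rats, had 147 in PNA and 195 in control ovaries (log2 ratio -0.41), so that its ratio ran opposite to that of *Bmp7*. *Bmp2*, a further ligand of the BMP type I receptors, had 389 in PNA and 459 in control ovaries (log2 ratio -0.24). These 3 genes have a single probe set each. *Bmp10*, known as a cardiac and endothelial ligand, had 40.8 in PNA and 41.9 in control ovaries, close to the floor, and *Bmp5* had 33.9 on both arrays. *Bmp8a* and *Bmp8b* lay below the floor on both.

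Among the GDFs, *Gdf10*, which is also called BMP3b, was lower on its only probe set, at 22.1 in PNA and 39.6 in control ovaries. The PNA value lies below the floor, so that the gene was at least 1.29-fold lower, which is short of 1.5-fold, and only the measured log2 ratio of -0.85 counts it as lower. *Gdf2* (BMP9, a ligand of endothelial cells) had 52.2 in PNA and 48.7 in control ovaries (log2 ratio 0.10). *Gdf15*, a stress-induced member, had 65.8 in PNA and 71.4 in control ovaries (log2 ratio -0.12), and *Gdf3* had 40.7 in PNA and 46.9 in control ovaries (log2 ratio -0.20). *Gdf11*, a relative of myostatin, had 29.4 in PNA and 35.6 in control ovaries, with the PNA value below the floor. *Gdf5* lay below the floor on both arrays.

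The TGF-betas themselves stayed under 1.5-fold. *Tgfb1* had 107 in PNA and 86.7 in control ovaries (log2 ratio 0.30) and its other probe set lay below the floor. *Tgfb3* had 172 in PNA and 177 in control ovaries (log2 ratio -0.05) on its only probe set. *Tgfb2* had 94.1 in PNA and 99.2 in control ovaries (log2 ratio -0.08) on the brightest probe set, while the 2 others above the floor gave log2 ratios of 0.36 and 0.19, so that its sign depended on the probe set.

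**Figure D3:**
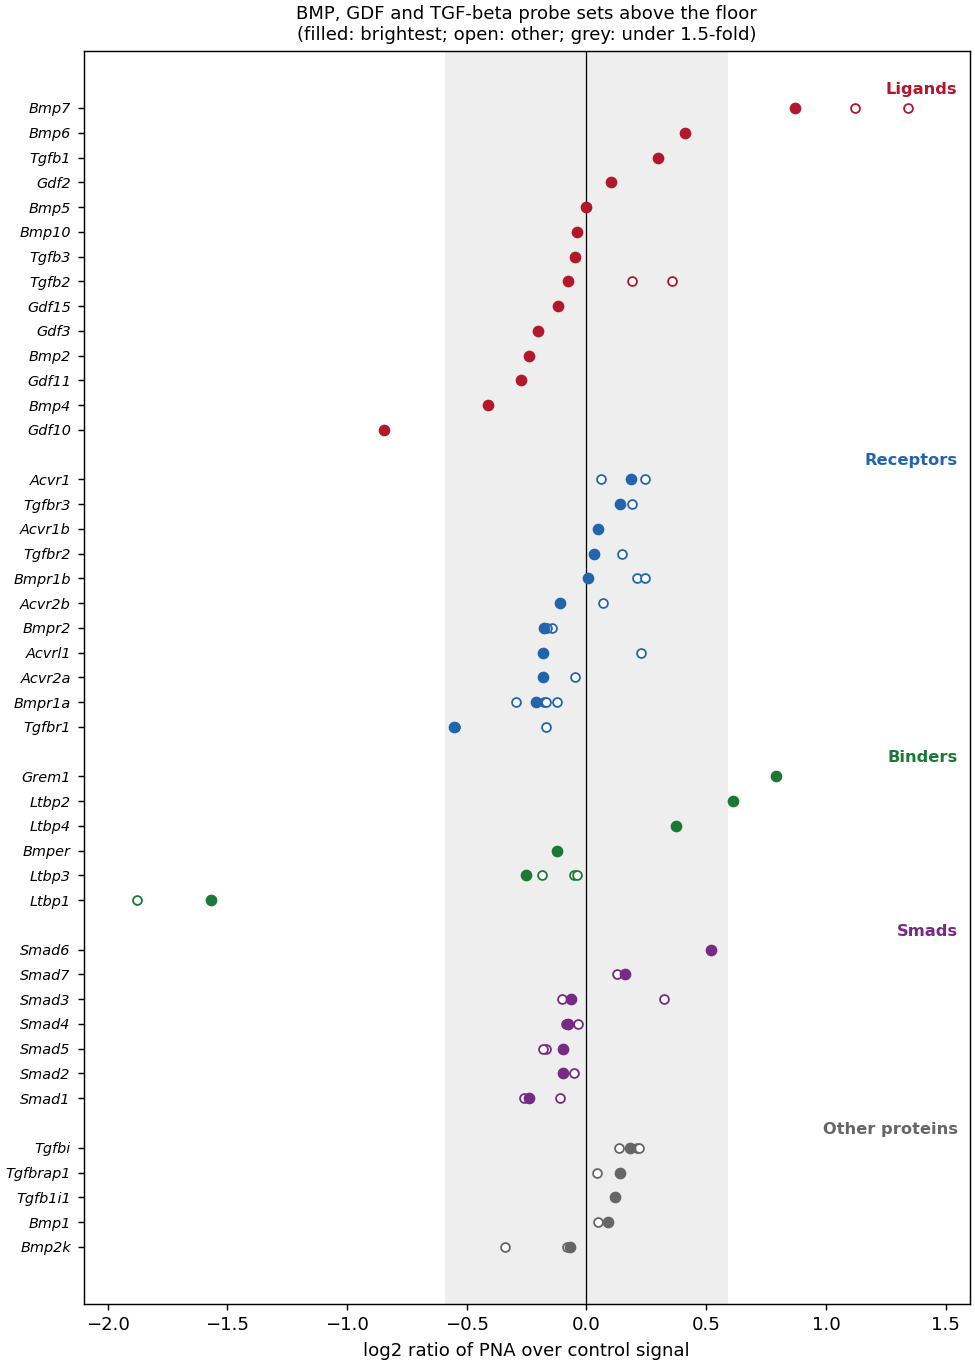
The log2 ratio of PNA over control signal of the probe sets above the floor, by gene and role for all but 1 of the 44 genes, with filled points for the brightest probe set of a gene, open points for its others and grey shading under 1.5-fold. The 3 probe sets of *Bmp7* lie right of the shading and both of *Ltbp1* left of it, and the receptors and Smads lie within it.

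The extracellular binders held the largest change in the pathway. *Ltbp1*, which binds latent TGF-beta and anchors it in the matrix, fell to a signal of 631 in PNA ovaries, against 1873 in control ovaries, a log2 ratio of -1.57 or 2.97-fold. A second probe set gave 16.0 in PNA and 58.9 in control ovaries, at least 1.92-fold lower against the floor, and the third lay below the floor on both arrays. Only 45 of the 14116 genes had a lower ratio than *Ltbp1*. The brightest probe set aligns to chromosome 17 at 75005474-75391766 on the plus strand, and the second aligns to 75392186-75392514, further 3′.
The other LTBPs did not fall with it. *Ltbp2*, which attaches to fibrillin microfibrils but does not bind latent TGF-beta, rose on its only probe set, with 119.9 in PNA and 78.3 in control ovaries (log2 ratio 0.61, 1.53-fold), just past the criterion, and with 50 added to both signals its log2 ratio was 0.40, short of it. *Ltbp4* had 253 in PNA and 195 in control ovaries (log2 ratio 0.37), also from a single probe set. *Ltbp3* had 1792 in PNA and 2136 in control ovaries (log2 ratio -0.25) on the brightest of 4 probe sets, which is of the s_at class that can detect several transcripts, and the others gave log2 ratios of -0.05, -0.19 and -0.04. Thus *Ltbp1* and *Ltbp3* had ratios below 1 on all their probe sets above the floor, and *Ltbp2* and *Ltbp4* above 1.
Smooth muscle and pericyte markers were on the low side on the PNA array. Of 12, *Rgs5*, a pericyte gene, fell and none rose, while 2.16% of all genes above the floor fell. A ratio below 1 was found for 10, and for 51% of all genes above the floor. The median log2 ratio was -0.23, and the summed signal was 8582 in PNA and 10417 in control ovaries. Of 12 corpus luteum markers, *Lhcgr* and *Cdkn1b*, a cell cycle inhibitor of luteal cells, fell and none rose, again beside 2.16% lower among all genes. The median was 0.04 and the summed signal was 81974 in PNA and 79753 in control ovaries. The part of these cells in the *Ltbp1* signal was not tested.

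Of the BMP binders, *Grem1*, a secreted antagonist of BMP2 and BMP4 that granulosa and cumulus cells make, rose to 678 in PNA ovaries, against 392 in control ovaries (log2 ratio 0.79, 1.73-fold), and it ranked 161st from the highest ratio. The value comes from a single probe set, aligned to chromosome 2 at 113748674-113758646 on the minus strand. *Bmper*, which binds BMPs in endothelium, had 199 in PNA and 217 in control ovaries (log2 ratio -0.12).
Granulosa cell markers were mixed. Of 16, 5 rose (*Cyp19a1*, *Bex2*, *Grem1* itself, *Amh* and *Nppc*) and none fell, against 2.49% higher among all genes above the floor. A ratio below 1 was found for 8, and for 51% of all genes above the floor. The median log2 ratio was 0.06 and the summed signal was 37305 in PNA and 36848 in control ovaries. *Inha*, *Foxl2* and *Fshr*, which are among the genes that define these cells, had log2 ratios of -0.03, 0.14 and -0.25. They were picked after their values were seen, and over the 16 markers the log2 ratio ran from -0.50 to 2.02. With 50 added to the signals, 3 granulosa markers were higher. The part of granulosa cell number in the *Grem1* signal was not tested.

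The starts of the changed binder genes, and of *Smad6*, which stayed under 1.5-fold, are printed to show the letters around their promoters. They are the 250 bases before the RefSeq start in GRCm38.p6, which comes from C57BL/6J and not from ICR mice, and for *Ltbp1* the first of 2 starts is shown. Capitals mark, on either strand, the Smad box CAGAC, the GC-rich Smad motif GGCGCC and the androgen receptor hexamer AGAACA.
*Grem1*, chr2:113758649-113758898, minus strand: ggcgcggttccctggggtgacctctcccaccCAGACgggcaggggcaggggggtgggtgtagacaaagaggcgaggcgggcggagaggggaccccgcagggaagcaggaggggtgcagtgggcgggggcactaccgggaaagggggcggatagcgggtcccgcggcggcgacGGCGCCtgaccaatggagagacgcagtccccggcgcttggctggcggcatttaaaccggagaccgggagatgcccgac
*Ltbp1*, chr17:75005279-75005528, plus strand: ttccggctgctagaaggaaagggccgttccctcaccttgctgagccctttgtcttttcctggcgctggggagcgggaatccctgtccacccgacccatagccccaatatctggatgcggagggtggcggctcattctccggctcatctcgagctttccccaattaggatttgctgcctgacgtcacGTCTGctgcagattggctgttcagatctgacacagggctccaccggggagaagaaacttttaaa
*Ltbp2*, chr12:84876492-84876741, minus strand: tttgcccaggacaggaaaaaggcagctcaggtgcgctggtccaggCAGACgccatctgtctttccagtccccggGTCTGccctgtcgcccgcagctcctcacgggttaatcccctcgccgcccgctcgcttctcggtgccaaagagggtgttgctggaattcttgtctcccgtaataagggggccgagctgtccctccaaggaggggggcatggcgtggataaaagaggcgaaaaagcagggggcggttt
*Smad6*, chr9:64022060-64022309, minus strand: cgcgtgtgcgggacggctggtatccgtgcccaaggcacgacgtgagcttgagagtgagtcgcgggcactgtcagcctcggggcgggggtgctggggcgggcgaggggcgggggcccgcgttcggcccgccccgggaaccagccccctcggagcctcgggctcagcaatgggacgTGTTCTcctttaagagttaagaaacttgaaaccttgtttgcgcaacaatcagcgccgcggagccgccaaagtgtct
The Smad box stood 1 time in the windows of *Grem1* and *Ltbp1* and 2 times in that of *Ltbp2* and in that of the second *Ltbp1* start, which is not printed. It was in 42.2% of 32851 RefSeq promoter windows of this length. The GC-rich motif was in the window of *Grem1* and in 9.59% of all windows. The androgen receptor hexamer was in the window of *Smad6*, in none of the 3 binder windows and in 16.1% of all windows. Of the 36 genes of the pathway that had a window, only *Bmpr2* and *Smad6* had the hexamer, and the other genes were not searched. The window of *Gdf10*, which is not printed, held the Smad box 1 time and no other marked motif. *Bmp7* had no window. Over the 36 genes of the pathway that had a window, with 47 windows, the Smad box was in 46.8%, the GC-rich motif in 23.4% and the hexamer in 4.26% of windows. None held the Smad palindrome GTCTAGAC or the full androgen receptor site, in which the hexamer is followed after 3 bases by its inverse, and these were in 0.167% and 0.00913% of all windows. A match describes the letters and not a bound site, and a missing match says only that the letters are not in this window.

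None of the 11 receptors above the floor reached 1.5-fold. Nearest to it was *Tgfbr1*, the type I receptor of TGF-beta, with 1786 in PNA and 2621 in control ovaries (log2 ratio -0.55, 1.47-fold). A second probe set gave 82.1 in PNA and 120.1 in control ovaries (log2 ratio -0.55) and the third 32.2 in PNA and 36.2 in control ovaries (log2 ratio -0.17), so that all 3 had a ratio below 1. The partners of this receptor did not share the ratio: *Tgfbr2*, the type II receptor, had 881 in PNA and 861 in control ovaries (log2 ratio 0.03), and *Tgfbr3*, the co-receptor betaglycan, had 1671 in PNA and 1518 in control ovaries (log2 ratio 0.14), with 0.19 on its other probe set.
For BMPs, the type II receptor gene *Bmpr2* had 3529 in PNA and 3995 in control ovaries (log2 ratio -0.18), and its other probe sets gave -0.14 and -0.17, so that all 3 were below 1. *Bmpr1a*, a type I receptor, had 928 in PNA and 1073 in control ovaries (log2 ratio -0.21), and its 5 probe sets above the floor all had a ratio below 1. A further probe set lay below the floor on both arrays and aligns to the strand opposite the gene, so it is given no direction. *Bmpr1b*, the type I receptor known for granulosa cells, had 654 in PNA and 652 in control ovaries (log2 ratio 0.00), and its dimmer probe sets gave 0.24 and 0.21. Both BMP type I receptor genes thus stayed within 1.5-fold, and the brightest *Bmpr1b* probe set had a ratio below 1 when the arrays were scaled to a common median.
Of the activin receptor genes, *Acvr1* (ALK2, which also serves BMPs and AMH) had 900.0 in PNA and 792 in control ovaries (log2 ratio 0.18), and *Acvr1b* (ALK4) had 334 in PNA and 323 in control ovaries (log2 ratio 0.05). The type II genes *Acvr2a* and *Acvr2b* had 294 in PNA and 333 in control ovaries (log2 ratio -0.18) and 92.8 in PNA and 100.2 in control ovaries (log2 ratio -0.11), where the dimmer probe set of *Acvr2b* gave 0.07. *Acvrl1* (ALK1), a receptor of endothelial cells, had 89.7 in PNA and 102 in control ovaries (log2 ratio -0.18), and its other probe set gave 0.23 on the other side of 1. Endothelial markers had a median log2 ratio of -0.11 over 15 genes, none of them past 1.5-fold. *Acvr1c* lay below the floor on both arrays.

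Among the Smads, the transducing members and the inhibitory members lay on different sides of 1, all within 1.5-fold. Of the receptor Smads for BMP, *Smad1* had 684 in PNA and 808 in control ovaries (log2 ratio -0.24), with -0.26 and -0.11 on its other probe sets, and *Smad5* had 452 in PNA and 484 in control ovaries (log2 ratio -0.10). Of those for TGF-beta and activin, *Smad2* had 449.8 in PNA and 481 in control ovaries (log2 ratio -0.10) and *Smad3* had 603 in PNA and 631 in control ovaries (log2 ratio -0.06). *Smad4*, the common partner, had 1400.4 in PNA and 1479 in control ovaries (log2 ratio -0.08), with -0.08 and -0.03 on its other probe sets. All 5 transducing genes above the floor thus had a ratio below 1, as did 51% of all genes above the floor, and so did 13 of their 14 probe sets. The exception was a dim probe set of *Smad3*, with 48.8 in PNA and 39.0 in control ovaries (log2 ratio 0.33), and its other dim probe set gave -0.10. These differences are smaller than the 0.42 within which the probe sets of 95% of genes differed. That spread holds no variation between animals or arrays, so it cannot tell whether the groups differ.
The inhibitory *Smad6*, which acts mainly on BMP signals and is itself a BMP target, had 129 in PNA and 89.9 in control ovaries on its only probe set (log2 ratio 0.52, 1.43-fold). *Smad7*, which acts on both branches, had 203 in PNA and 181 in control ovaries (log2 ratio 0.16), and its second probe set gave 0.13. *Smad9* lay below the floor on both arrays.

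The 5 other proteins with such a symbol stayed under 1.5-fold. *Tgfbi*, a matrix protein named for its induction by TGF-beta, had 823 in PNA and 726 in control ovaries (log2 ratio 0.18), and its 4 probe sets gave 0.14 to 0.22. *Bmp1*, a procollagen protease and no BMP, had 290.2 in PNA and 273 in control ovaries (log2 ratio 0.09). *Tgfb1i1*, a focal adhesion adaptor, had 300.4 in PNA and 277 in control ovaries (log2 ratio 0.12), and *Tgfbrap1*, an adaptor of endosomal tethering, had 284 in PNA and 258 in control ovaries (log2 ratio 0.14). *Bmp2k*, a kinase induced by BMP2, had 411 in PNA and 431 in control ovaries (log2 ratio -0.07), with -0.08 and -0.34 on its other probe sets.
Over all roles, 24 genes had 2 or more probe sets above the floor. In 11 of these every such probe set had a ratio below 1 and in 9 every one had a ratio above 1. Over all 6260 genes of this kind the shares were 32% and 24.8%.

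Genes of the pathway without such a symbol were taken from 5 lists. Among 24 measured target genes, 22 lay above the floor, of which *Cdkn2b* and *Tnc* rose and none fell, with a median log2 ratio of 0.07. *Cdkn2b*, a cell cycle inhibitor induced by TGF-beta, had 1304 in PNA and 702 in control ovaries (log2 ratio 0.89) on its only probe set. *Tnc*, the matrix protein tenascin C, had 2504 in PNA and 1501 in control ovaries (log2 ratio 0.74), and its other probe set gave 626 in PNA and 188 in control ovaries (log2 ratio 1.73). The Id genes, which BMP Smads switch on, did not share a direction. *Id1* had 875 in PNA and 612 in control ovaries (log2 ratio 0.52), *Id3* had 1599 in PNA and 1435 in control ovaries (log2 ratio 0.16) and *Id4* had 134 in PNA and 125 in control ovaries (log2 ratio 0.10), whereas *Id2* had 1349.7 in PNA and 1601 in control ovaries (log2 ratio -0.25), with -0.85 on its dimmest probe set. The collagen genes *Col1a2* and *Col3a1*, among the brightest on this list, had log2 ratios of 0.21 and 0.03, and a dim probe set of *Col1a2*, below the floor in control ovaries, had 1.02.
Of 27 intracellular modulators, all above the floor, *Pmepa1* rose and *Runx2* fell, with a median of -0.05. *Pmepa1*, a feedback inhibitor that TGF-beta induces, had 471 in PNA and 307 in control ovaries (log2 ratio 0.62), and its other probe sets gave 0.64 and 0.43. Its brightest probe set gave a log2 ratio of 0.55, short of 1.5-fold, once 50 was added to each signal. *Runx2*, a transcription factor that works with Smads in bone, fell to 794 in PNA ovaries, against 1505 in control ovaries (log2 ratio -0.92), with -0.58 and -0.72 on its other probe sets. The 3 brightest of the list were *Fkbp1a*, which guards the type I receptor, *Skil*, a Smad co-repressor, and *Tab2*. Their log2 ratios were -0.30, -0.45 and 0.05.
Of 17 measured genes of latency, activation and matrix, 14 lay above the floor and *Fmod* alone fell, with a median of -0.01. *Fmod*, a small proteoglycan that binds TGF-beta, had 26.9 in PNA and 66.7 in control ovaries, at least 2.18-fold lower against the floor, and its ratio was below 1 on all 6 probe sets, 5 of them above the floor. With a floor required on both arrays, or at the 60th percentile, it was not counted. Its brightest probe set ends in x_at, a class that can also detect related transcripts. *Dcn*, a proteoglycan of the same family, had 3929 in PNA and 2826 in control ovaries (log2 ratio 0.48), and its dim second probe set gave 71.1 in PNA and 33.0 in control ovaries (log2 ratio 1.11). As the mean of probe sets, 1 gene of this list was higher. *Pcolce* and *Itgav*, with *Dcn* the 3 brightest of this list, had log2 ratios of -0.13 and -0.12 on their brightest probe sets. *Fbn1*, the microfibril protein to which LTBPs attach, had 754 in PNA and 655 in control ovaries (log2 ratio 0.20).
Of 23 measured antagonists and co-receptors, 14 lay above the floor and none passed 1.5-fold, with a median of 0.08. The brightest, *Twsg1*, which binds BMPs together with chordin, had 1401 in PNA and 1190.4 in control ovaries (log2 ratio 0.24). Of the 11 genes of the activin, inhibin and AMH branch, 9 lay above the floor and *Amh* alone rose, with 199 in PNA and 119 in control ovaries (log2 ratio 0.74), which became 0.56, short of 1.5-fold, once 50 was added to each signal. *Inhba* and *Inhbb*, which encode the subunits of activin A and activin B, had log2 ratios of 0.43 and -0.43.
Of the genes above the floor, 9.09% of target genes, 11.1% of the activin, inhibin and AMH branch and 3.7% of intracellular modulators were higher. Lower were 7.14% of the latency, activation and matrix genes and 3.7% of the modulators. The other shares of the pathway lists were 0%. Among all genes above the floor, 2.49% were higher and 2.16% lower. No pathway list held more than 2 genes in a direction, so each share above 0% rests on 1 or 2 genes. Leukocyte markers had a median log2 ratio of 0.38, with 3 higher and none lower of 12 above the floor and a summed signal of 5317 in PNA and 4358 in control ovaries. Their part in the target genes was not tested.

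**Figure D4:**
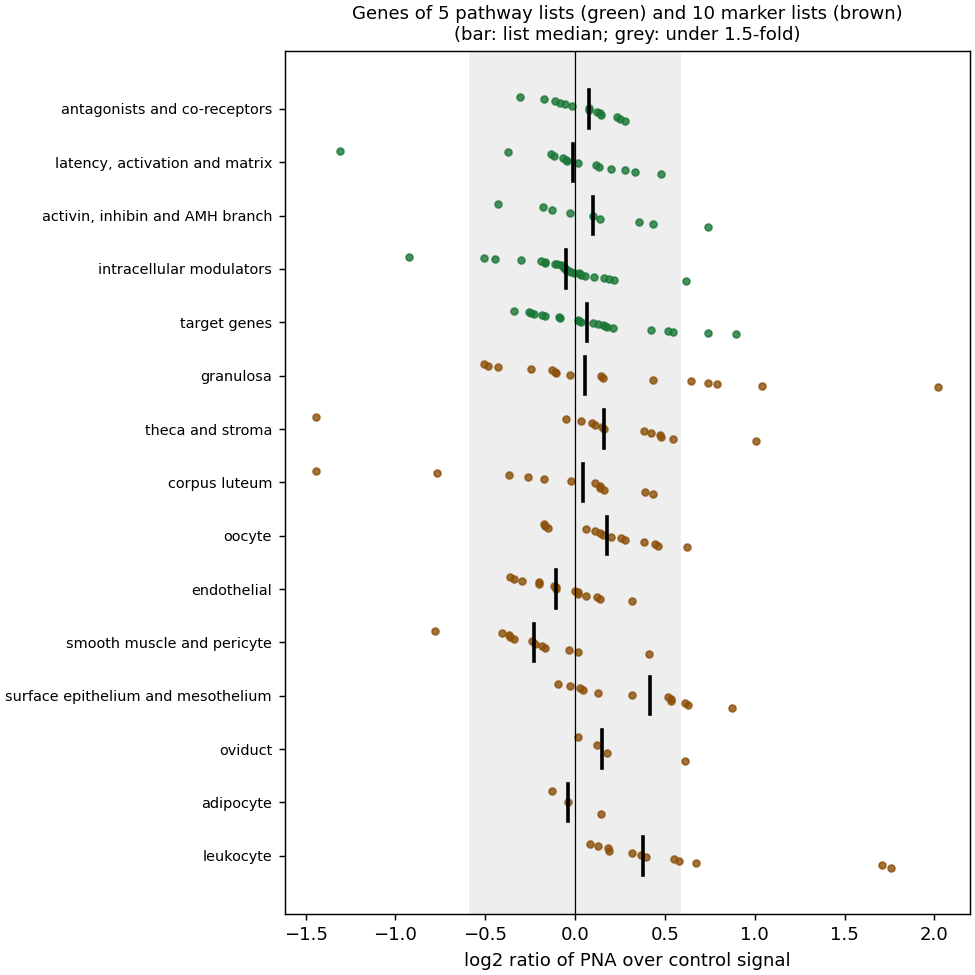
The log2 ratio of PNA over control signal of genes above the floor in 5 pathway lists (green) and 10 cell marker lists (brown), with a black bar at each list's median and grey shading under 1.5-fold. The medians of the pathway lists lie between -0.05 and 0.10, and those of the surface epithelium and leukocyte markers at 0.42 and 0.38.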

How the data were processed

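RNA of ovaries was hybridized to the Affymetrix Mouse Genome 430 2.0 array, with 1 array for PNA and 1 for control mice. For each of 45101 probe sets the authors deposited an intensity on a linear scale, together with a centred log2 value. The software that summarised the probes and scaled the arrays, and how RNA of the 5 ovaries was combined, are not known from the sources used here. Other deposited tables hold the authors' own fold changes and calls and were not used. The linear and the centred log2 values carried the same ratios (largest difference 2e-06), and the log2 series values differed from them by at most 1e-09. The signal was the same on both arrays for 2033 probe sets, with a median of 15.7. No depth applies to arrays.

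After 64 control probe sets were left out, 38130 of 45037 named a single gene. Of several probe sets of a gene, that of highest mean log2 signal was used. Scripts ran in Python 3.11.15 (numpy 2.4.6, pandas 2.3.3). No test was run. The file names no genome build for its alignments, and 97.5% of 34754 checked alignments overlapped the span of the same Entrez gene in GRCm38.p6. The genes, their roles, the pathway and marker lists and the alternatives were chosen with earlier results of these data known. Genes of the family above the floor could be named, with every probe set for those past 1.5-fold and the 3 brightest of each role, and of the pathway lists those past 1.5-fold and the 3 brightest, and of the marker lists up to 4 that passed. The Id genes, *Fbn1*, *Nppc* and the defining marker genes were named beyond this rule after their values were seen. Values of 1 gene of the family and of 1 target gene are not reported here singly. The alternatives were scaling to a common median, quantile normalization, loess (fraction 0.3, statsmodels 0.14.6), an offset of 50, other floors, other choices of probe set, a fold change of 2 and the series values. The gene counting was tested on simulated data with known ratios of 2-fold or more, in genes well above the floor. Calls near 1.5-fold or near the floor were not covered by it.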

Additional observations from a re-analysis of the deposited data

How the results depend on the processing

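No paired analysis was possible because each group has 1 array. Scaling to a common median, quantile normalization, removal of a loess trend and the series values moved no count by over 1.5 times, nor did leaving out probe sets of the x_at and s_at classes. The count of higher leukocyte markers, 3 as deposited, was 4 with the loess trend removed and 2 without those classes. Scaling to a common median put 7 of 11 receptors below 1, against 6 as deposited. Over all alternatives the median log2 ratio of all genes lay between -0.0298 and -0.00173. At a fold change of 2, 0 genes of the pathway were higher (0 ligands and 0 binders) and 1 was lower (0 ligands), with 0.63% of all genes higher and 0.793% lower. With 50 added to both signals, 1 gene was lower (0 ligands) and 1 binder was higher, with 1.12% of all genes higher and 1.14% lower. The log2 ratio was then 0.40 for *Ltbp2*, -0.31 for *Gdf10*, 0.56 for *Amh* and 0.55 for *Pmepa1*, all under 1.5-fold, and 3 granulosa, 1 surface epithelium and 0 oocyte markers were higher, against 5, 3 and 1. With the floor at the 60th percentile, with the floor required on both arrays, and with *Gdf10* taken against the floor (chosen after its value was seen), 1 gene was lower and 0 ligands were. The first 2 of these settings also ended the call of *Fmod*, and the first left 2 surface epithelium markers higher. Averaging probe sets made 2 theca and stroma markers, 4 surface epithelium markers and 1 gene of the latency and matrix list higher, against 1, 3 and 0. As the mean of its probe sets, *Pmepa1* had 0.56, the median of the receptors was 0.02 when probe sets above the floor were averaged, and 4 of 5 transducing Smads had a ratio below 1. Over all alternatives the log2 ratio ranged from -1.72 to -1.30 for *Ltbp1*, from 0.71 to 1.11 for *Bmp7*, from 0.72 to 0.80 for *Grem1* and from -0.58 to -0.42 for *Tgfbr1*. Single-probe-set genes, *Grem1* and *Ltbp2* among them, have no second measurement on these arrays.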

Other observations

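The oocyte factors that the symbol rule left out stayed under 1.5-fold. *Gdf9*, which drives growth of granulosa cells, had 894 in PNA and 767 in control ovaries (log2 ratio 0.22). *Bmp15*, its X-linked partner, had 177 in PNA and 140.0 in control ovaries on one probe set (log2 ratio 0.34) and 165 in PNA and 144 in control ovaries on another (log2 ratio 0.19), and a dim probe set near the floor had 28.5 in PNA and 30.5 in control ovaries (log2 ratio -0.10). Oocyte markers as a list had a median log2 ratio of 0.18 over 14 genes, with *Uchl1* higher and none lower. The higher share of 7.14% rests on this 1 gene, beside 2.49% higher and 2.16% lower among all genes above the floor. With 50 added to the signals, or at a fold change of 2, 0 oocyte markers were higher.

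*Gdf1* was measured by a probe set that names *Cers1* as well, at 33.0 in PNA and 34.1 in control ovaries. Of the 104 probe sets of the pathway, 2 align to the strand opposite their gene, a dim one of *Acvr1* (50.9 in PNA and 48.8 in control ovaries) and one of *Bmpr1a* that lay below the floor on both arrays. Leaving these out, an alternative chosen after seeing the data, changed no call.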
